A study of Mus musculus with 8 samples.

Results

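The Hox genes encode homeodomain transcription factors that lie in 4 clusters in the mouse genome (Hoxa, Hoxb, Hoxc and Hoxd), and the Meis and Pbx genes encode homeodomain proteins of the TALE class that bind DNA together with them. A list of 44 such genes was taken: 10 Hoxa, 10 Hoxb, 9 Hoxc and 9 Hoxd genes and 6 cofactor genes (Meis1, Meis2, Meis3, Pbx2, Pbx3 and Pbx4). A gene was measured by the probe set that carries its symbol and no other, and among several such probe sets the one of highest mean was taken. That gave a value for 42 of the 44 genes, among 22180 genes on the array. Hoxa11 and Hoxd4 were covered by probe sets shared with another symbol and have no value here. A filter on dim probe sets (mean over all 8 arrays at or above a log2 value of 3.88) left 32 of the 42 for testing, among 17576 genes. The tested members were 8 Hoxa, 9 Hoxb, 4 Hoxc and 5 Hoxd genes and all 6 cofactors.

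The arrays hold RNA from 3 populations of C57/Bl6 mouse bone marrow, labelled as 8 weeks old, all sorted as Lin-Sca1+Kit+. LT-HSC (long-term hematopoietic stem cells, CD48-CD150+CD34-) had 2 arrays, replicates 1 and 3, ST-HSC (short-term stem cells, CD48-CD150+CD34+) had 3, and MPP (multipotent progenitors, CD48+CD150-CD34+) had 3. The study was designed around the expression of the chromatin remodeler Chd7 in these cells. The labels disagree on treatment, since each sample's description gives none while a protocol shared by all samples describes DMSO for 2 hours, then primary recipients for 1 year and secondary recipients for 3 months. No label states that arrays of a population came from different mice, so the p-values measure the spread between arrays, which may be partly technical. In sorted bulk RNA, fewer cells that express a gene and less RNA per cell cannot be told apart.

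Hox proteins specify position along the body axis in the embryo, and the order of the genes in a cluster follows the order of the regions they pattern. In blood, genes of the Hoxa and Hoxb clusters are active in stem and progenitor cells and are shut down during maturation. MEIS1 and PBX proteins join HOX proteins on DNA, raise their specificity and take part with HOXA9 in acute leukemia. Upstream, the histone methyltransferase encoded by Kmt2a and its partners keep the clusters transcribed.

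Values are log2 RMA signals, and a difference between populations is a difference of log2 means with its standard error (SE). The arrays of replicate 1 of LT-HSC and of ST-HSC were least like the rest, with median correlations of 0.956 and 0.968, against 0.976 to 0.985 for the other 6 arrays. All 3 replicate 1 arrays carried more granulocyte and monocyte signal than their population's other arrays. Of 16 such markers, 15, 16 and 16 lay above their own mean in replicate 1 of LT-HSC, ST-HSC and MPP, against 1 to 3 in the other arrays. The mean level of the list was 5.26 to 7.05 in LT-HSC, 5.48 to 7.35 in ST-HSC and 5.83 to 6.84 in MPP. Of 15 stromal and endothelial markers, 10, 12 and 8 lay above their own mean in replicate 1 of LT-HSC, ST-HSC and MPP. In the other arrays it was 3 in LT-HSC, 2 and 0 in ST-HSC, and 6 and 6 in MPP. The sort was visible in Slamf1, which encodes CD150, at 4.93, 5.46 and 4.77 in MPP, against 7.77 and 7.78 in LT-HSC (adjusted p = 0.00115). Cd34 and Cd48 followed the gates less closely. Cd34 was at 8.50 and 10.20 in LT-HSC, sorted as CD34-, against 9.55, 10.15 and 10.07 in ST-HSC. Its MPP signals were 11.00, 10.85 and 10.92. Cd48 was at 5.92 and 6.63 in LT-HSC and 7.49, 6.51 and 6.57 in ST-HSC, both sorted as CD48-. In MPP, Cd48 was at 7.84, 6.65 and 6.96.

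The signal of probe sets for genes that should be silent gave a frame for the members. Olfactory receptor genes, which blood cells are not known to transcribe, had a median of 3.36 and a 95th percentile of 5.19 over 1105 genes. Of the 42 members, 17 had means above 5.19, while 51.2% of all genes on the array did. They were Hoxa2, Hoxa4, Hoxa5, Hoxa6, Hoxa7, Hoxa9 and Hoxa10 of the Hoxa cluster, Hoxb3, Hoxb4 and Hoxb5 of the Hoxb cluster, Hoxd8 and Hoxd10, and Meis1, Meis3, Pbx2, Pbx3 and Pbx4. No Hoxc gene was among them. Against the 99th percentile of the olfactory genes, 6.43, the count was 8: Hoxa5, Hoxa6, Hoxa7, Hoxa9, Hoxb5, Meis1, Pbx3 and Pbx4. Probe sets differ in how strongly they respond, so this frame describes the signal and is no detection call.

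**Figure D1:**
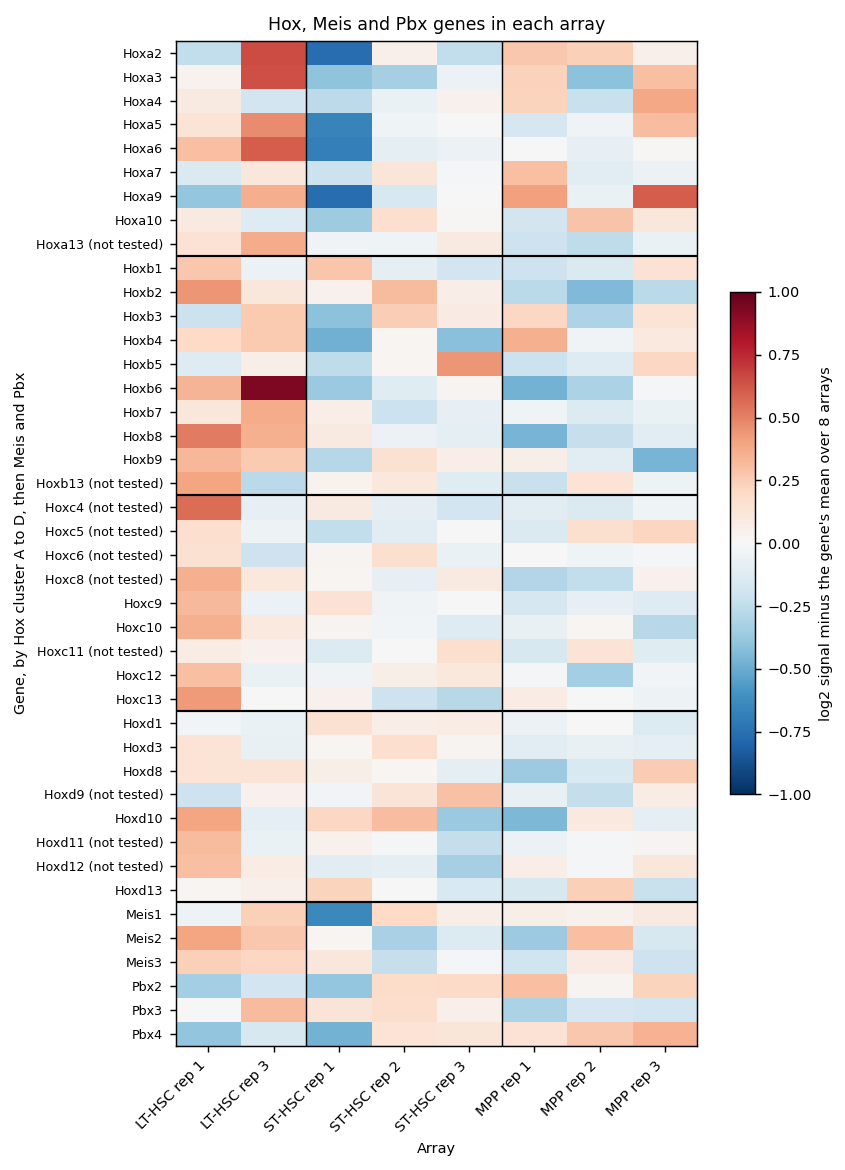
Deviation of each member from its own mean over the 8 arrays (colour, log2 units; rows are the 42 members by cluster, columns the arrays in the order LT-HSC, ST-HSC, MPP). Most Hoxb rows are above their mean in both LT-HSC arrays, and all Hoxa rows are below theirs in ST-HSC replicate 1.

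In the fit without a block, to deposited values, no member passed the test in any comparison at an adjusted p under 0.05 (limma, Benjamini-Hochberg over 17576 genes). Between MPP and LT-HSC, 0 of the 32 tested members were called, and 0.125% of all genes were. The count was also 0 for ST-HSC against LT-HSC, where 0.933% of all genes were called, and for MPP against ST-HSC, where 0.193% were. With the replicate number as a block, 267 genes instead of 34 were called between MPP and ST-HSC, and still no member. The same block called 1 member, Hoxb6, in both comparisons with LT-HSC and for any difference, and quantile normalization called 1, Hoxa6, in ST-HSC against LT-HSC. The count over all genes also moved between alternatives. It ran from 5 to 615 genes for MPP against LT-HSC, 0 to 825 for ST-HSC against LT-HSC and 29 to 566 for any difference. In the fit without a block, the test for any difference among the 3 populations called no member either, and 0.905% of all genes. On simulated arrays of this size, a log2 change of 1 was recovered in 48% of changed genes between MPP and LT-HSC and a change of 2 in 92%. The simulated noise was independent between arrays, without the deviations that real arrays shared, and changes below 1 were not simulated. Every difference of a tested member in this fit was below 1 in size.

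At an unadjusted p under 0.05, the members leaned toward lower values than in LT-HSC. In MPP, 1 member was higher and 6 were lower than in LT-HSC (6.96% and 3.6% of all genes). In ST-HSC, none was higher and 7 were lower (7.81% and 3.25% of all genes). MPP against ST-HSC gave 2 in each direction (3.63% and 3.26% of all genes). These counts rest on few arrays: the 7 of MPP came to 3 without MPP replicate 3, the 7 of ST-HSC to 2 without LT-HSC replicate 3, and the 4 between MPP and ST-HSC to 1 without ST-HSC replicate 1, MPP replicate 1 or MPP replicate 3. Arrays of the groups did not overlap, with MPP below LT-HSC, for 10 members: Hoxa6, Hoxb2, Hoxb6, Hoxb7, Hoxb8, Hoxb9, Hoxc9, Hoxc10, Meis3 and Pbx3 (10.5% of all genes). Of these, 7 had means at or below the olfactory 95th percentile (18.5% of all genes there) and 3 above it (6.15% of all genes there). MPP lay above LT-HSC without overlap for 2, Pbx2 and Pbx4 (14.1% of all genes). ST-HSC lay below LT-HSC without overlap for 12 members (9.5% of all genes) and above for 1, Hoxd1 (13.8%). Of the 12, 7 were in the dim range (16% of all genes there) and 5 above it (5.95% of all genes there). MPP lay above ST-HSC without overlap for 2, Hoxa2 and Pbx4 (7.75% of all genes), and below for 6, Hoxb2, Hoxb8, Hoxc9, Hoxd1, Hoxd3 and Pbx3 (6.43%). The population with the highest mean was LT-HSC for 23 of the 32 members, ST-HSC for 3 and MPP for 6, against 34.8%, 30% and 35.2% of all genes. The lowest mean was in LT-HSC for 2, in ST-HSC for 13 and in MPP for 17, against 44.1%, 29.6% and 26.3% of all genes. The unadjusted test for any difference passed 5 members, Hoxa6, Hoxb2, Hoxb4, Hoxb6 and Hoxb8 (10.5% of all genes).

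Of the 32 members, 26 had a negative difference between MPP and LT-HSC and 27 between ST-HSC and LT-HSC (42.8% and 48% of all genes), and 17 between MPP and ST-HSC (48.3% of all genes). Dim genes in general also leaned toward lower values than in LT-HSC. Among all 6222 tested genes at or below the olfactory 95th percentile, 73.2% had a negative difference between MPP and LT-HSC, with a median of -0.12. The 15 members in that range were negative in 15 cases, with a median of -0.30. Among the 11354 brighter genes, 26.1% were negative, with a median of 0.18, and of the 17 brighter members 11 were negative, with a median of -0.02. For ST-HSC against LT-HSC, 14 of the 17 brighter members were negative, with a median of -0.10, beside 34.2% of the brighter genes, with a median of 0.12. Centring the arrays on their medians adds the same amount to every gene, 0.12 between MPP and LT-HSC and 0.11 between ST-HSC and LT-HSC, so no member moved relative to the median of all genes. That shift turned differences near 0 positive, among the members described singly in Hoxa2, Hoxb3, Hoxb4, Hoxb5 and Meis1 for MPP and in Hoxa4, Hoxa7, Hoxa10, Hoxb3, Hoxd10 and Pbx3 for ST-HSC.

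**Figure D2:**
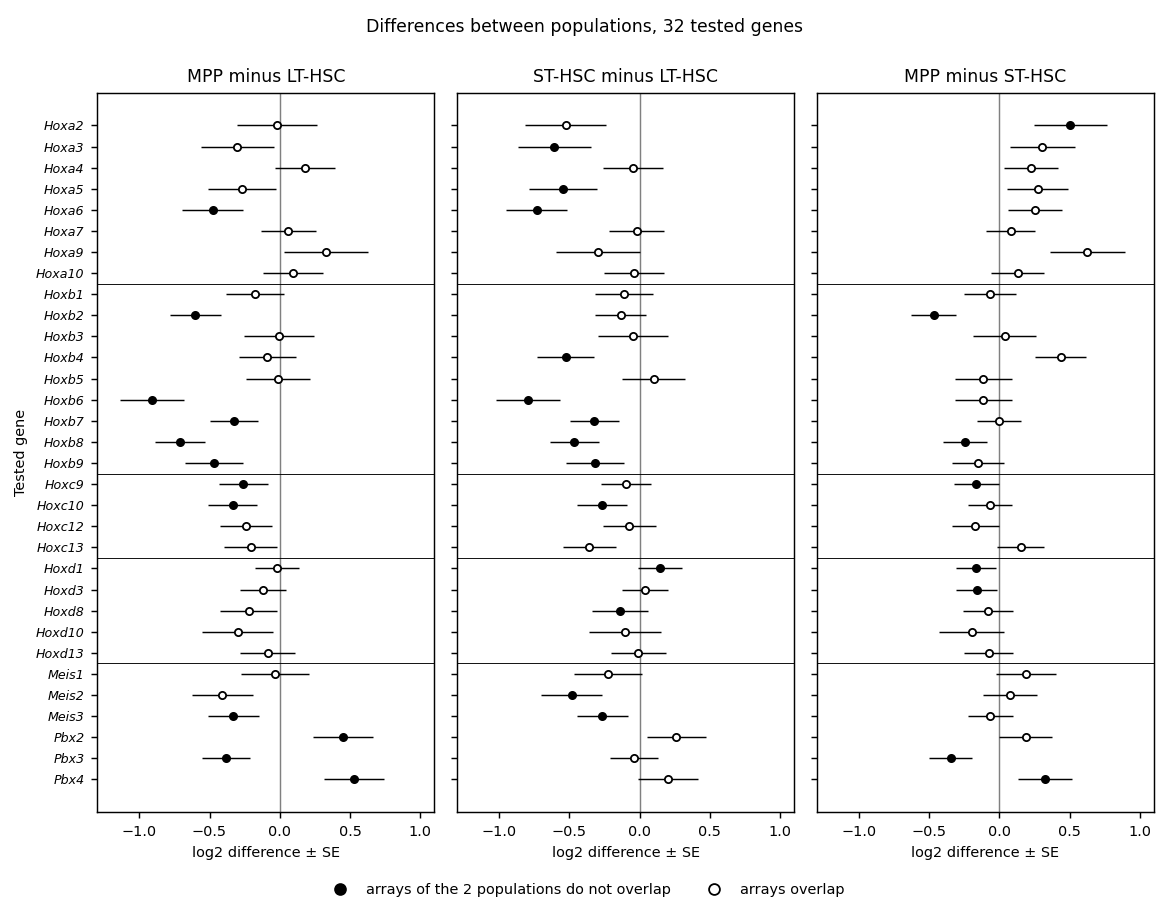
Differences of the 32 tested members in log2 units with SE as bars (filled points where the arrays of a pair do not overlap, open points where they do), in panels for MPP minus LT-HSC, ST-HSC minus LT-HSC and MPP minus ST-HSC. The leftmost point of the first panel is Hoxb6 at -0.91, and none of the points passed the adjusted test.

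The Hoxa cluster, on chromosome 6, held 7 of the 17 members with means above the olfactory range, and the lowest means of its tested genes were in ST-HSC over all arrays. All 8 tested Hoxa genes had their lowest mean in ST-HSC, 5 of the 8 when ST-HSC replicate 1 was left out. Of the 8, 4 had their highest mean in LT-HSC and 4 in MPP. The median difference of the 8 was 0.02 between MPP and LT-HSC, -0.41 between ST-HSC and LT-HSC, and 0.26 between MPP and ST-HSC, while all tested genes had medians of 0.06, 0.02 and 0.01. The untested Hoxa13 was between 3.34 and 3.97 on all arrays. In ST-HSC replicate 1 none of the 9 measured Hoxa genes was above its own mean, and that array also had the most granulocyte, monocyte and stromal signal, whose part in the result was not tested. Without ST-HSC replicate 1 the median between ST-HSC and LT-HSC was -0.19, without LT-HSC replicate 1 it was -0.69, and without both it was -0.47. Between MPP and LT-HSC the Hoxa median was -0.25 without LT-HSC replicate 1, and between MPP and ST-HSC it was 0.10 without ST-HSC replicate 1.

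Hoxa6 gave the clearest pattern of the cluster. Its log2 signals were 7.50 and 7.81 in LT-HSC, 6.51, 7.11 and 7.14 in ST-HSC, and 7.20, 7.12 and 7.22 in MPP. Both LT-HSC arrays were above all 6 others. The difference was -0.73 for ST-HSC minus LT-HSC (SE 0.22, adjusted p = 0.203), a 1.66-fold lower signal, and -0.48 for MPP minus LT-HSC (SE 0.22, adjusted p = 0.469). After quantile normalization of the deposited values the first of these was -0.89 with an adjusted p of 0.0482. Without ST-HSC replicate 1 it was -0.53.

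Hoxa9, whose product sustains the growth of stem and progenitor cells and is a frequent oncogene in myeloid leukemia, had its highest mean in MPP. It had 7.45 and 8.21 in LT-HSC, 7.08, 7.68 and 7.85 in ST-HSC, and 8.25, 7.78 and 8.44 in MPP. The MPP arrays overlapped with those of both other populations. The difference was 0.62 for MPP minus ST-HSC (SE 0.27, adjusted p = 0.669, and 0.20 with the replicate block) and 0.33 for MPP minus LT-HSC (SE 0.30, adjusted p = 0.666). Without LT-HSC replicate 1, MPP minus LT-HSC gave -0.05, and without ST-HSC replicate 1, MPP minus ST-HSC gave 0.40.

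Hoxa5, which when forced in human progenitors favours myeloid over erythroid growth, had 7.12 and 7.46 in LT-HSC, 6.32, 6.94 and 6.99 in ST-HSC, and 6.82, 6.95 and 7.30 in MPP. ST-HSC did not overlap with LT-HSC (-0.54, SE 0.24, adjusted p = 0.443, and -0.33 without ST-HSC replicate 1). Hoxa2, known for patterning the hindbrain and the second pharyngeal arch, had 6.11 and 7.01 in LT-HSC, 5.59, 6.41 and 6.11 in ST-HSC, and 6.63, 6.59 and 6.41 in MPP. Every MPP array was above every ST-HSC array, by a margin below the decimals shown (0.51, SE 0.26, adjusted p = 0.82, and 0.28 without ST-HSC replicate 1), but the LT-HSC arrays spread across both.

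Hoxa4, Hoxa7 and Hoxa10 had means close together in the 3 populations. Hoxa7 averaged 6.78 ± 0.18 (SD) over the 2 LT-HSC arrays, 6.76 ± 0.17 over the 3 of ST-HSC and 6.85 ± 0.22 over the 3 of MPP, with no difference above 0.08 in size. Hoxa10, which drives progenitor expansion when overexpressed, averaged 5.43 ± 0.15, 5.39 ± 0.27 and 5.52 ± 0.24 in LT-HSC, ST-HSC and MPP. Hoxa4 averaged 5.41 ± 0.20, 5.37 ± 0.15 and 5.59 ± 0.31 in the same order.

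In the Hoxb cluster, on chromosome 11, 8 of 9 tested genes had their highest mean in LT-HSC (34.8% of all genes). All 10 measured Hoxb genes had a lower mean in MPP than in LT-HSC, and 9 of 10 a lower mean in ST-HSC (42.8% and 48% of all tested genes). Only 3 of the 10 had means above the olfactory 95th percentile. Among all tested genes at or below it, 73.2% were lower than in LT-HSC in each comparison. Over the 9 tested genes the median was -0.33 between MPP and LT-HSC and -0.32 between ST-HSC and LT-HSC. Both medians came closer to 0, at -0.20 and -0.20, after quantile normalization. MPP and LT-HSC did not overlap for 5 of the 9 genes, Hoxb2, Hoxb6, Hoxb7, Hoxb8 and Hoxb9, all with means over the 8 arrays in the olfactory range. MPP lay below LT-HSC without overlap for 10.5% of all genes and for 18.5% of the genes in that range. In LT-HSC alone, the means of Hoxb2 and Hoxb6 were 5.33 and 5.26, above the olfactory 95th percentile of 5.19. The order within the cluster was not smooth, since Hoxb3 and Hoxb4, which lie between Hoxb2 and Hoxb6, differed by less than 0.1 in size between MPP and LT-HSC.

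Hoxb6, which immortalises mouse myeloid progenitors when overexpressed, showed the widest gap. Its signals were 4.97 and 5.56 in LT-HSC, 4.26, 4.51 and 4.65 in ST-HSC, and 4.15, 4.31 and 4.60 in MPP. Both LT-HSC arrays were above every other array, although they differed from each other by more than the ST-HSC arrays did among themselves. The difference was -0.91 for MPP minus LT-HSC (SE 0.23, unadjusted p = 0.00207, adjusted p = 0.197), a 1.88-fold lower signal. Against LT-HSC, the ST-HSC mean differed by -0.79 (SE 0.23, adjusted p = 0.186), and the test for any difference gave an adjusted p of 0.18. With the replicate block the adjusted p was 0.0441 for MPP against LT-HSC, 0.0427 for ST-HSC against LT-HSC and 0.0334 for any difference. LT-HSC arrays deviated together with ST-HSC arrays of the same number (correlations 0.54 and 0.475), but not alike with those of MPP (-0.16 and 0.10). The deviations of 2 LT-HSC arrays from their mean mirror each other, so these are not separate pairs. LT-HSC replicate 3 also correlated with ST-HSC replicate 2, at 0.32. Without LT-HSC replicate 3 the differences from LT-HSC were -0.61 for MPP and -0.50 for ST-HSC. The mean of Hoxb6 over all arrays lay within the olfactory range.

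Hoxb8, an oncogene that blocks myeloid differentiation and is used to immortalise progenitors, had 4.43 and 4.26 in LT-HSC, 3.99, 3.84 and 3.80 in ST-HSC, and 3.44, 3.67 and 3.79 in MPP. Each population's arrays lay below those of the one before, with no overlap between any pair. The difference was -0.71 for MPP minus LT-HSC (SE 0.18, adjusted p = 0.196), and ST-HSC gave -0.46 against LT-HSC (SE 0.18, adjusted p = 0.36). With a mean of 3.90 over all arrays it barely passed the filter, so these steps lie in the signal range of silent genes.

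Hoxb2, which patterns the hindbrain, was set apart in MPP. It had 5.49 and 5.16 in LT-HSC, 5.09, 5.37 and 5.12 in ST-HSC, and 4.78, 4.61 and 4.78 in MPP. All MPP arrays were below all others, with -0.60 against LT-HSC (SE 0.18, adjusted p = 0.29) and -0.47 against ST-HSC (SE 0.16, adjusted p = 0.457, and 0.316 with the replicate block).

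Hoxb4, whose forced expression expands mouse stem cells, had its lowest mean in ST-HSC instead. It had 6.53 and 6.59 in LT-HSC, 5.85, 6.35 and 5.91 in ST-HSC, and 6.69, 6.30 and 6.43 in MPP. ST-HSC lay below LT-HSC without overlap (-0.53, SE 0.20, adjusted p = 0.369), and MPP minus ST-HSC gave 0.44 (SE 0.18, adjusted p = 0.648) with ST-HSC replicate 2 inside the MPP range. Hoxb3 averaged 5.27 ± 0.34 in LT-HSC (n = 2), 5.22 ± 0.34 in ST-HSC and 5.26 ± 0.28 in MPP (n = 3 each), with differences of at most 0.05 in size.

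Hoxb5, whose expression marks long-term stem cells in mouse reporter studies, was the member with a second probe set of its own, and its 2 probe sets gave different pictures. The one used here had 6.36 and 6.55 in LT-HSC, 6.23, 6.51 and 6.93 in ST-HSC, and 6.28, 6.36 and 6.69 in MPP, with full overlap and -0.01 for MPP minus LT-HSC (SE 0.23, adjusted p = 0.982). The other had 7.22 and 6.73 in LT-HSC, 6.49, 6.27 and 6.40 in ST-HSC, and 5.83, 6.38 and 6.02 in MPP. There, both LT-HSC arrays were above all others, with -0.90 for MPP minus LT-HSC (SE 0.22, adjusted p = 0.187), a 1.87-fold lower signal. ST-HSC differed from LT-HSC by -0.59 there (SE 0.22, adjusted p = 0.342). The means over all arrays that decided between the probe sets were 6.49 and 6.42. Which part or strand of the locus each one covers is not given in the sources used here.

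**Figure D3:**
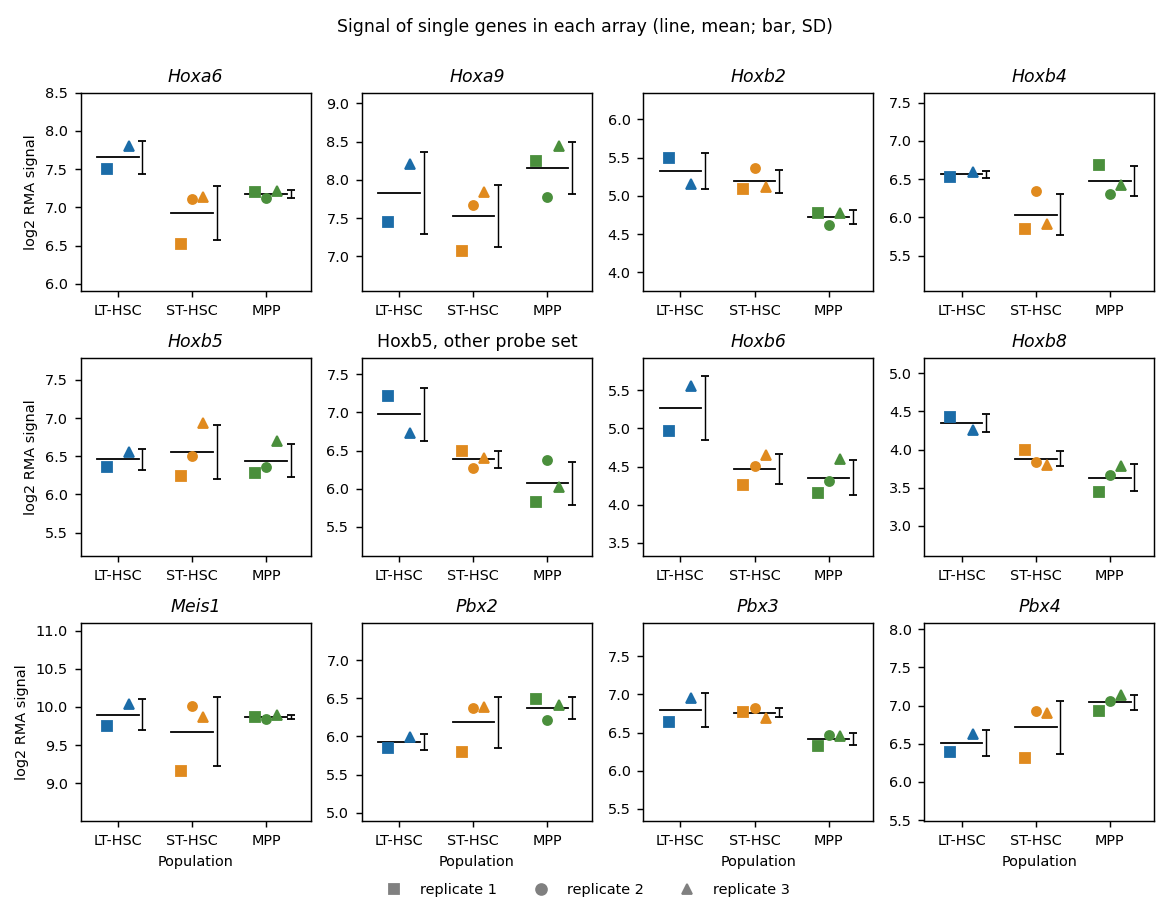
Log2 signal of selected members among those described one by one, with both probe sets of Hoxb5, in LT-HSC, ST-HSC and MPP. Points are arrays, horizontal bars are means, and SD bars are drawn. Each panel has its own axis range, of the same width in all panels. Hoxb6, Hoxb8 and Hoxa6 have both LT-HSC points above all others, and Hoxa9 and Pbx4 have their highest means in MPP.

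Promoters of 3 of these genes are shown because their LT-HSC arrays stood apart from at least one other population. The windows run from 250 bases before to 50 bases after the transcription start, from RefSeq on GRCm38.p6: Hoxa6 at chr6:52208623-52208922 on the minus strand, Hoxb4 at chr11:96318017-96318316 and Hoxb8 at chr11:96281655-96281954, both on the plus strand. Capitals mark TAAT or its reverse complement ATTA, the core that homeodomains bind, with overlapping matches joined.
Hoxa6: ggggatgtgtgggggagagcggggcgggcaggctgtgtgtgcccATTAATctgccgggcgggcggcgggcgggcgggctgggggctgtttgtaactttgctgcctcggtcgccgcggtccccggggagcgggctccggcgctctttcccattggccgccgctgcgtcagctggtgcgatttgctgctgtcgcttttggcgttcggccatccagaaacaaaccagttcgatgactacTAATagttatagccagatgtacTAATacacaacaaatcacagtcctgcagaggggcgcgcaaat
Hoxb4: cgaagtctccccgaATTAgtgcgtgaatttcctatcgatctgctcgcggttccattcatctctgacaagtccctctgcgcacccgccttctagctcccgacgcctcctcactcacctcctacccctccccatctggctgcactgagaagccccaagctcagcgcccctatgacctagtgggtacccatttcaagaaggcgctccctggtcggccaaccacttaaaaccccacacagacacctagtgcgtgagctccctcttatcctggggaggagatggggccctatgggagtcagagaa
Hoxb8: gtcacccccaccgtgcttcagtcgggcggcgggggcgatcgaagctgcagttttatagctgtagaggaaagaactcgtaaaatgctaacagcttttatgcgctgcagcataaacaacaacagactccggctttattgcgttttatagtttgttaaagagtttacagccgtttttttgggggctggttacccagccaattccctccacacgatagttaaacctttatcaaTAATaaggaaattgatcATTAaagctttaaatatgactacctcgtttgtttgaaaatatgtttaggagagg
The core was found 4 times in the Hoxa6 window, once in that of Hoxb4 and 2 times in that of Hoxb8, counting both strands. Of 29 promoter entries from 27 members, 20 held it (69.0%), beside 58.0% of 32851 promoters in all. The letters TGATTNAT, which HOX-PBX pairs bind, were in 2 of the 29 (6.9%, beside 3.22% of all), and the MEIS letters TGACAG in 2 (6.9%, beside 19.2% of all), none of them in the 3 windows shown. The member promoters had a median of 15 CG dinucleotides, beside 7 over all promoters. Hoxb5 and Hoxb6 are named only.

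Hoxc and Hoxd genes, on chromosomes 15 and 2, carried little signal and small differences. Of the 9 Hoxc genes, 4 were tested (Hoxc9, Hoxc10, Hoxc12 and Hoxc13), with a median of -0.25 between MPP and LT-HSC and -0.18 between ST-HSC and LT-HSC. The first came to -0.06 without LT-HSC replicate 1, the array in which 9 of 9 Hoxc genes were above their own mean. Of the 8 measured Hoxd genes, 5 were tested, with medians of -0.12 and -0.01 in the same comparisons, and both turned to 0.00 or above after quantile normalization. The 10 untested members of all clusters ranged from 2.93 (Hoxd9) to 4.24 (Hoxc4) over all arrays.

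Hoxd8 and Hoxd10, which pattern the trunk and limbs, were the Hoxd genes above the olfactory range. Hoxd8 had 5.37 and 5.37 in LT-HSC, 5.29, 5.26 and 5.14 in ST-HSC, and 4.87, 5.08 and 5.49 in MPP, so ST-HSC was just below LT-HSC and MPP spanned both (MPP minus LT-HSC -0.22, SE 0.20, adjusted p = 0.664). Hoxd10 had 6.0 and 5.51 in LT-HSC, 5.81, 5.91 and 5.24 in ST-HSC, and 5.16, 5.71 and 5.51 in MPP, with overlap throughout.

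Among the cofactors, Pbx2 and Pbx4 had their highest means in MPP and Pbx3 its lowest, while the Meis1 means were close together. Meis1, which mouse stem cells need for their maintenance, had 9.76 and 10.04 in LT-HSC, 9.16, 10.01 and 9.86 in ST-HSC, and 9.86, 9.85 and 9.89 in MPP. Apart from ST-HSC replicate 1 all arrays lay within a narrow band, and the difference was -0.03 for MPP minus LT-HSC (SE 0.24, adjusted p = 0.962).

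Pbx4, known in the mouse mainly from the testis, had 6.39 and 6.63 in LT-HSC, 6.31, 6.92 and 6.90 in ST-HSC, and 6.93, 7.05 and 7.13 in MPP. All MPP arrays were above the other 5, with 0.53 against LT-HSC (SE 0.21, adjusted p = 0.432) and 0.33 against ST-HSC (SE 0.19, adjusted p = 0.906, and 0.623 with the replicate block). The second difference was 0.13 without ST-HSC replicate 1. Pbx2, a broadly expressed family member, had 5.85 and 6.0 in LT-HSC, 5.80, 6.37 and 6.38 in ST-HSC, and 6.49, 6.22 and 6.41 in MPP, with MPP above LT-HSC in every array (0.45, SE 0.21, adjusted p = 0.485).

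Pbx3, a partner of HOXA9 in human leukemia, had 6.64 and 6.95 in LT-HSC, 6.77, 6.82 and 6.69 in ST-HSC, and 6.32, 6.47 and 6.45 in MPP. Every MPP array was below the other 5, with -0.38 against LT-HSC (SE 0.17, adjusted p = 0.464) and -0.35 against ST-HSC (SE 0.15, adjusted p = 0.701, and 0.541 with the replicate block). Without LT-HSC replicate 3 the first was -0.23. Meis3 had 6.04 and 6.01 in LT-HSC, 5.91, 5.57 and 5.79 in ST-HSC, and 5.60, 5.88 and 5.59 in MPP. Both LT-HSC arrays were above all others, with -0.33 for MPP minus LT-HSC (SE 0.18, adjusted p = 0.53). Meis2, in the olfactory range, averaged 4.70 ± 0.09 in LT-HSC (n = 2), 4.22 ± 0.17 in ST-HSC and 4.29 ± 0.34 in MPP (n = 3 each).

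Genes around the members were read from fixed lists. Of 20 tested activators of Hox transcription, 1 was called, in the test for any difference among the populations. It was Mllt3, which encodes a reader in the complexes that elongate Hox transcripts and is known to sustain human stem cells. Mllt3 had 9.23 and 9.47 in LT-HSC, 8.37, 8.71 and 8.67 in ST-HSC, and 8.28, 8.40 and 8.22 in MPP. Both LT-HSC arrays were above all others, with -1.05 for MPP minus LT-HSC (SE 0.18, adjusted p = 0.0702) and an adjusted p of 0.0442 for any difference, which ranged from 0.0118 to 0.212 over the alternatives and missed the threshold in 10 of 18. Wdr5, a subunit of the methyltransferase complexes, averaged 7.27 ± 0.17 in LT-HSC (n = 2), 7.73 ± 0.08 in ST-HSC and 7.69 ± 0.06 in MPP (n = 3 each, adjusted p = 0.434 for any difference). The median of the activators was 0.23 between MPP and LT-HSC. All tested genes above the olfactory 95th percentile, the range of 18 activators, had a median of 0.18.

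None of 10 tested TALE genes outside the Meis and Pbx families was called. Pknox1, another partner of PBX proteins, had 5.03 and 5.39 in LT-HSC, 5.75, 5.95 and 5.95 in ST-HSC, and 6.15, 5.69 and 6.14 in MPP, with 0.78 for MPP minus LT-HSC (SE 0.20, adjusted p = 0.212). Tgif1, a TALE repressor, averaged 7.60 ± 0.39 in MPP, against 6.65 ± 0.71 in ST-HSC (n = 3 each, adjusted p = 0.577).

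Of 18 genes known as targets of HOXA9 and MEIS1, none was called. At an unadjusted p under 0.05, 5 were higher and 1 lower in MPP than in LT-HSC (6.96% and 3.6% of all genes). Flt3, a cytokine receptor gene of early progenitors, had 5.84 and 8.49 in LT-HSC, 7.19, 7.17 and 6.86 in ST-HSC, and 9.80, 9.43 and 9.45 in MPP. Every MPP array was above all others, with an adjusted p of 0.17 against LT-HSC and of 0.0893 against ST-HSC (2.49, SE 0.49). Sox4, which codes for a transcription factor, averaged 9.99 ± 0.07 in MPP and 9.01 ± 0.39 in ST-HSC (n = 3 each), with 0.97 between them (SE 0.23, adjusted p = 0.141). Cd34 was also among the 5 higher targets. LT-HSC were sorted as CD34- and MPP as CD34+, so its difference is not independent of the sort. The list's median difference of MPP was 0.28 from LT-HSC and 0.39 from ST-HSC. All 18 targets had means above the olfactory 95th percentile, where all tested genes had medians of 0.18 and 0.02. Of 16 tested genes that flank the clusters none was called, and their median was 0.11 between MPP and LT-HSC, beside 0.06 for all tested genes. Cbx5, which encodes a heterochromatin protein, averaged 8.99 ± 0.08 in ST-HSC (n = 3), against 8.40 ± 0.14 in LT-HSC (n = 2), without overlap (0.60, SE 0.20, adjusted p = 0.289). Lnpk, which encodes a protein of the endoplasmic reticulum, was between 5.88 and 5.96 in ST-HSC, above all arrays of the other populations (0.36 against LT-HSC, SE 0.16, adjusted p = 0.439).

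**Figure D4:**
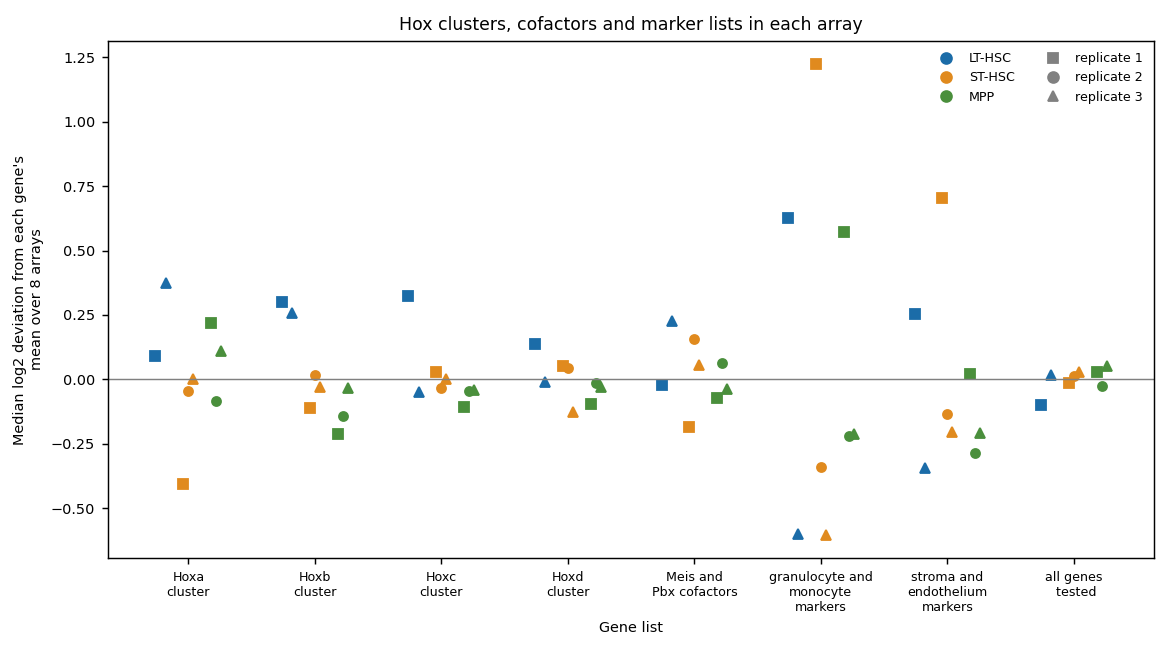
Median deviation of each gene list from the genes' own means, in log2 units, for each array (points, coloured by population in the order LT-HSC, ST-HSC, MPP, with squares, circles and triangles for replicates 1, 2 and 3). The Hoxb points of both LT-HSC arrays are at 0.30 and 0.26, the Hoxa point of ST-HSC replicate 1 is at -0.41, and the granulocyte and monocyte point of that array is at 1.22.

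Noncoding genes of the clusters gave little signal. Of 15 listed, 6 had a probe set of their own and 5 were tested, with none called. Hotair, an antisense RNA of the Hoxc cluster, averaged 4.30 ± 0.03 in MPP (n = 3), against 4.70 ± 0.18 in LT-HSC (n = 2, adjusted p = 0.518). Mir10b of the Hoxd cluster and Mir196a-1 and Mir196a-2 of the Hoxb and Hoxc clusters encode microRNAs known to target Hox transcripts, so their RefSeq mature sequences (GRCm38.p6) are given with the seed, bases 2 to 8, in capitals.
mmu-miR-10b-5p: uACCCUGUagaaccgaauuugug
mmu-miR-196a-5p: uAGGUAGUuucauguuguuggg
The seeds differ, and both copies of Mir196a give the same mature sequence. Mir10b had 2.64 and 2.74 in LT-HSC, 2.83, 2.53 and 2.61 in ST-HSC, and 2.55, 2.47 and 2.45 in MPP, below the filter. Mir196a-1 averaged 4.69 ± 0.09 in LT-HSC (n = 2), 4.84 ± 0.20 in ST-HSC and 4.79 ± 0.13 in MPP (n = 3 each), with 0.10 for MPP minus LT-HSC (SE 0.18, adjusted p = 0.836). Mir196a-2 averaged 3.96 ± 0.41, 4.17 ± 0.20 and 3.95 ± 0.14 in the same order. The kits amplify total RNA, and whether such probe sets read the mature microRNAs or longer transcripts was not tested.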

How the data were processed

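Total RNA was extracted with Trizol, amplified with the Ovation Pico WTA System V2 and biotin-labelled with Encore Biotin, per the labels' protocols. The deposited table held log2 values made by the authors with RMA, per the submitters' processing notes, for 33649 probe sets on 8 arrays. That the scale is log2 was judged from the range of the values, and the RMA version is not given in the sources used here. RMA corrects background, normalizes arrays and summarises probes, and it compresses differences of dim probe sets. Array medians ran from 4.95 to 5.22, and precision is limited by how few arrays there are. LT-HSC replicate 1 had the highest median and the narrowest interquartile range, 2.49, against 2.73 to 3.06 in the other arrays. The part of this in the lower values of dim genes outside LT-HSC was not tested. Probe sets were named from the annotation of the platform: 23521 probe sets had 1 symbol, 1814 several and 8314 none here.

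Expression was modelled with limma 3.58.1 (R 4.3.3) over all 8 arrays, with 1 mean for each population and 1 spread for all (5 residual and 5.93 prior degrees of freedom), since LT-HSC had 2 arrays. Genes entered when their mean reached the 25th percentile of probe sets. P-values were adjusted by Benjamini-Hochberg over 17576 genes, and the fit was tested on simulated data. The members and lists were chosen with earlier results of these data known. Described one by one were members called, above the olfactory range, or without overlap of a pair at an unadjusted F p under 0.05. From each other list came called genes and the 2 genes of smallest p. Other genes were named after their values were seen.

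Arrays of ST-HSC and MPP with the same replicate number deviated together (correlations 0.15, 0.23 and 0.21). The main fit did not pair them, and the number entered as a block only in an alternative fit. Alternatives changed the filter, scaling, probe set choice, array weights, block and arrays used. Marker lists other than those given were read in the same way: of 6 erythroid, 11 B cell and 11 T and NK cell markers, 4, 10 and 8 were above their own mean in LT-HSC replicate 1, 6, 8 and 8 in ST-HSC replicate 1, and 6, 5 and 3 in MPP replicate 1. Of 5 sort genes, 4 had a probe set with 1 symbol.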

Additional observations from a re-analysis of the deposited data

How the results depend on the processing

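The members called were 0 in the 3 comparisons and the test for any difference as deposited, and 0 whenever a single array was left out. With the replicate block 1 member was called in MPP against LT-HSC, in ST-HSC against LT-HSC and for any difference, each time Hoxb6 (adjusted p = 0.0441, 0.0427 and 0.0334). Quantile normalization called 1 member, Hoxa6, in ST-HSC against LT-HSC. LT-HSC arrays correlated with ST-HSC arrays of the same number (0.54 and 0.475) but not alike with those of MPP (-0.16 and 0.10). The deviations of the 2 LT-HSC arrays mirror each other, so these are not separate pairs. LT-HSC replicate 3 also correlated with ST-HSC replicate 2, which has another number, at 0.32. No label states what the number stands for. The cause of these changes was not tested. Among the members described singly, Mllt3 and Pknox1, no difference was called with the opposite sign to that of the deposited values. Over the alternatives, 5 to 615 genes were called in MPP against LT-HSC (22 as deposited), 0 to 825 in ST-HSC against LT-HSC (164), 1 to 525 in MPP against ST-HSC (34) and 29 to 566 for any difference (159).

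Cluster medians moved more, and the cause was not tested. For MPP minus LT-HSC, a filter at the 50th percentile, which leaves fewer genes and no Hoxc gene, gave -0.052 for Hoxb, -0.26 for Hoxd and -0.033 for the cofactors. Quantile normalization gave -0.20 for Hoxb and 2e-04 for Hoxd, and median centring -0.20 for Hoxb, -0.13 for Hoxc and 7e-04 for Hoxd, where centring adds the same amount to every gene and leaves the distance to the median of all genes as it was. Averaging a gene's probe sets gave -0.46 for Hoxb, and the other Hoxb5 probe set -0.47. Without LT-HSC and ST-HSC replicate 1 together the values were -0.25 for Hoxa and -0.064 for Hoxc. Without the replicate 1 arrays of all 3 populations, a setting chosen after seeing the data like the Hoxb5 one, they were -0.26 for Hoxa, -0.46 for Hoxb and -0.083 for Hoxc. For ST-HSC minus LT-HSC, Hoxb was -0.091 with the stricter filter, -0.20 after quantile normalization and -0.15 without these arrays in either setting, and Hoxd was 0.11 after quantile normalization. Hoxd for MPP minus ST-HSC was 0.031 without all replicate 1 arrays. Leaving out single arrays gave -0.25 to 0.048 for Hoxa and -0.44 to -0.064 for Hoxc in MPP minus LT-HSC, and 0.10 to 0.38 for Hoxa in MPP minus ST-HSC. In ST-HSC minus LT-HSC it gave -0.69 to -0.17 for Hoxa, -0.34 to -0.022 for Hoxc, -0.11 to 0.14 for Hoxd and -0.22 to 0.020 for the cofactors. Raising the olfactory bound to the 99th percentile left 8 members above it instead of 17.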
